A study of Mus musculus with 4 samples.

Results

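Small nucleolar RNAs (snoRNAs) and small Cajal body RNAs were examined in neutrophils of arthritic SKG mice with and without Mif, the gene of the cytokine macrophage migration inhibitory factor. Members were taken by gene name, as Snord (C/D box), Snora (H/ACA box) or Scarna (Cajal body) followed by a digit. This gave 133 of the 47729 genes in the files, of which 84 were C/D box, 40 H/ACA box and 9 Cajal body genes. Symbols of the form Rnu and predicted genes with Gm names were not members, so families listed under those names are not covered by these counts. All 4 mouse samples had the BALB/c SKG background and were collected 8 weeks after curdlan, a fungal beta-glucan that sets off the disease in this strain. The comparison was between 2 wild-type samples and 2 Mif -/- samples, each of total RNA from neutrophils sorted from bone marrow and spleen. The labels do not give the share of each tissue. Nor do they say that replicates came from separate animals, and every p-value therefore reflects sample spread that may be technical. The question was which RNAs differ between neutrophils with and without Mif in this model.

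Most of these RNAs guide chemical modification of other RNAs by base pairing. C/D box RNAs carry a C box near the 5′ end and a D box near the 3′ end and direct the methyltransferase fibrillarin to ribose positions, mainly of ribosomal RNA. H/ACA box RNAs fold into hairpins joined by an H box and closed by an ACA box, and direct the pseudouridine synthase dyskerin. Cajal body RNAs use the same kinds of boxes, reside in Cajal bodies and guide the modification of spliceosomal small nuclear RNAs. In mammals most of them are cut out of introns of host genes, many of which encode ribosomal proteins.

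The libraries differed in depth by genotype. The smallest step between low values, which may be a read or a fragment, gave the knockout libraries 5.28 and 4.83 times the depth of the shallowest library, wild-type replicate 2, and wild-type replicate 1 1.23 times. Run names show the wild type on lane 2 and the knockout on lane 1. Genotype cannot be told apart from depth or lane. Levels are in FPKM (fragments per kilobase of transcript, scaled to library size). The deleted gene, Mif, had 0.882 and 2.88 FPKM in the wild type and was listed at 0 in the knockout pair. Of 10 neutrophil genes, among them S100a8 and Ly6g, all were tested, and their summed level ranged from 101640 to 107792 FPKM. Of these Ly6g was higher in the knockout past the threshold, at 519 and 491 against 918 and 936 FPKM (limma adjusted p = 0.0364). An unadjusted p under 0.05 (limma) was reached by 5 of the 10, all higher, against 8.35% higher among all genes tested. The other 5, S100a8 and S100a9 among them, had negative differences. Genes of B and plasma cells summed to 196 and 159 FPKM in the wild type and 35.7 and 41.3 FPKM in the knockout. Of these 8 genes 3 were tested, Igkc, Ighm and Jchain. All 3 were lower past the threshold (limma adjusted p = 0.0226, 0.0423 and 0.0261), as were 0.186% of all genes tested. Erythroid genes summed to 5.84 and 22.6 against 19.4 and 19.2 FPKM, monocyte and macrophage genes to 33.0 and 48.3 against 40.0 and 44.9 FPKM, and dividing progenitor genes to 118 and 102 against 128 and 132 FPKM. T cell genes summed to 62.2 to 72.7 FPKM, nearly all from Cd3d, while Trac was listed at 0 throughout. The part of these cells in the results below was not tested, and in bulk RNA fewer cells of a type and less RNA per cell cannot be told apart.

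One Cajal body RNA gene made up most of the signal. Members together held 0.0947% to 0.108% of all FPKM in a library, and Scarna10 alone supplied 52.2% to 67.3% of that sum. Its level was 368 FPKM in wild-type replicate 1, 261 FPKM in replicate 2, and 361 and 374 FPKM in the knockout. Wild-type replicate 2 was low and the other 3 libraries lay close together, so the groups overlapped. Next in order came Scarna2 at 41.4 and 52.2 against 54.1 and 34.8 FPKM, then Scarna13 at 22.01 and 23.9 against 23.4 and 19.4 FPKM. Scarna2 and Scarna13 also overlapped between the genotypes, and Scarna10, Scarna2 and Scarna13 were separate from each other in every library. The 40 H/ACA box genes together reached only 51.7 to 72.6 FPKM and the 84 C/D box genes only 42.9 to 54.3 FPKM. The median gene was listed at 0.0880 to 0.149 FPKM among C/D box genes, 0.150 to 0.271 FPKM among H/ACA box genes and 4.395 to 8.70 FPKM among Cajal body genes. These levels are per length.

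**Figure D1:**
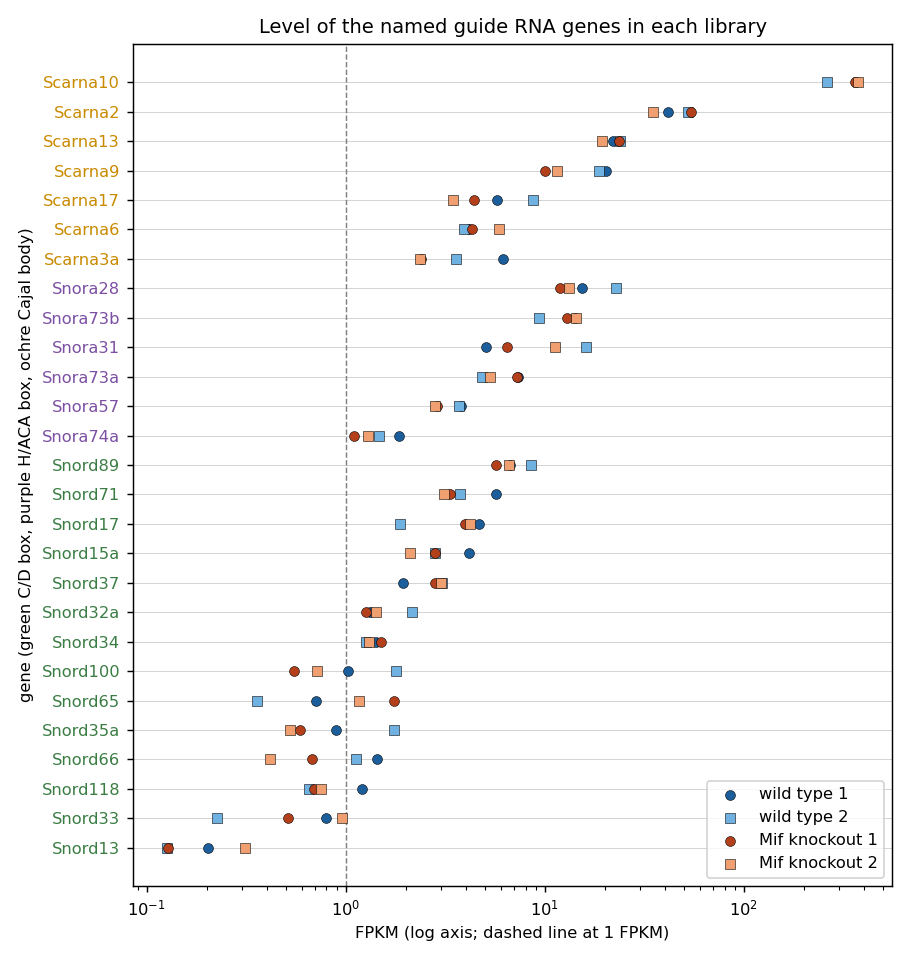
Level of each named guide RNA gene (rows) in FPKM on a log axis, with 1 point per library (blue wild type, red Mif knockout, circles replicate 1, squares replicate 2). Scarna10 lies at 261 to 374 FPKM, and the genotypes are apart for Scarna9 but mixed for Scarna10, Scarna2 and Scarna13.

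More members were listed in the deeper knockout libraries, and fewer once a level of 1 FPKM was required. Members listed above 0 numbered 114 and 114 in the wild-type and 120 and 121 in the knockout libraries. Over all genes the numbers above 0 were 18329 and 18358 against 20556 and 20557. Members with at least 3 steps' worth of signal numbered 49 and 45 against 68 and 71. The count at 1 FPKM or more ran the other way, 36 and 36 against 26 and 28. Listed at 0 in all 4 libraries were 10 members, among them Snord116l1, Snord116l2, Snord64 and Snord107, all from the imprinted Snrpn region that is active mainly in neurons, and Snora35 in the serotonin receptor gene Htr2c. No member was named Snord113, Snord114, Snord115 or Snord3a.

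Length went with level. The 74 members shorter than the 100-base read had a median level of 0.0664 FPKM over the 4 libraries, the 52 of 100 bases up to under 200 0.288 FPKM and the 7 of 200 bases or more 12.7 FPKM. Those 7 were Scarna10, Scarna13, Scarna2, Scarna6, Snora73a, Snora73b and Snord17. C/D box genes had a median annotated length of 79.5 bases, H/ACA box genes 132 bases and Cajal body genes 140 bases, so class and length are not independent. Length and level did not always go together. Snora28, at 127 annotated bases, averaged 15.8 FPKM and Scarna9, at 70 bases, 15.2 FPKM, while Snord17, at 238 bases, averaged 3.67 FPKM.

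Members lying inside host exons were listed lower than members in introns, with overlap between them. A gene on the same strand contained 125 of the 133 members, counting 89 hosts, of which 69 were protein coding and 23 encoded ribosomal proteins. The 63 members lying wholly in introns had a median level of 0.655 FPKM over the 4 libraries. The 54 members inside an annotated exon of some host transcript, had a median level of 0.0131 FPKM, and 39 of them averaged under 0.1 FPKM, as did 13 of the 63 in introns. The contrast held in each library, at 0.885 and 0.0130 FPKM in wild-type replicate 1 and 0.549 and 0.00491 FPKM in knockout replicate 1. It was present in both large classes, 0.612 against 0.00853 FPKM for C/D box genes and 0.569 against 0.0208 FPKM for H/ACA box genes. In exons lay the members hosted by the long noncoding RNA Gas5 (Snord47, Snord78 and both Snord80 entries), none above 0.160 FPKM, although Gas5 stood at 5.76 and 10.5 against 6.58 and 7.34 FPKM. Host and member overlap there, so their reads may not have been told apart. Snora28, inside an exon of the translation initiation factor gene Eif5, was the highest of the 54, at a mean of 15.8 FPKM.

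**Figure D2:**
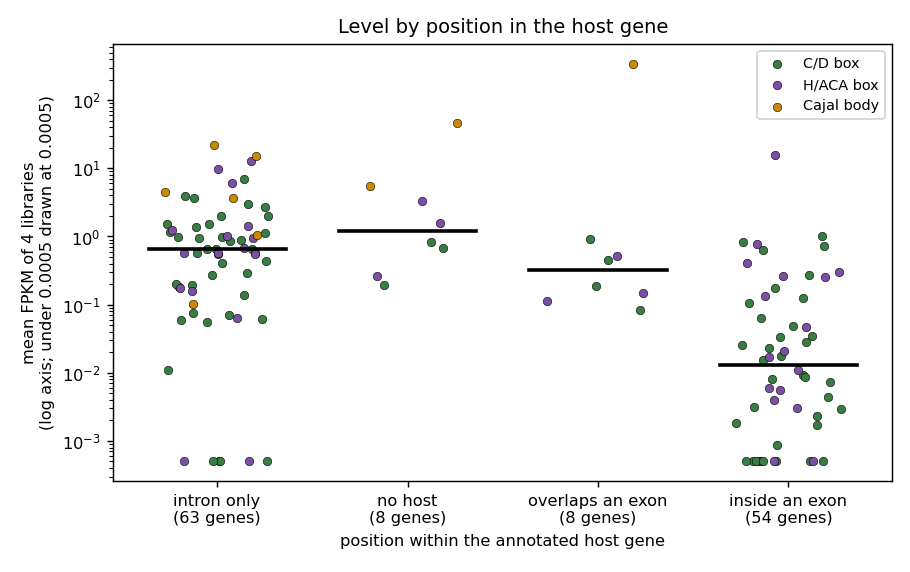
Mean FPKM over the 4 libraries (log axis, values under 0.0005 drawn at 0.0005) of all 133 members, by position in the annotated host gene, coloured by class, with black bars at medians. Members wholly in introns centre on 0.655 FPKM and members inside an exon on 0.0131 FPKM.

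The annotated sequences were read for the boxes that define each class, using GENCODE M21 transcripts on GRCm38. Among C/D box genes, 54 of 84 (64.3%) held NTGATGA within the first 20 bases and 77 (91.7%) held CTGA within the last 15, against 0.136% and 4.42% of 3687 other short genes typed snRNA, miRNA or misc_RNA. Among H/ACA box genes, 38 of 40 (95.0%) held ACA in the last 8 bases and 37 (92.5%) held ANANNA between 35% and 65% of their length, against 12.2% and 43.7% of those other genes. Only the transcribed strand was searched, and ANANNA is too loose to mark an H box on its own. By these boxes the names and the sequences go together, and 4 of 9 Cajal body genes held both the C and the D motif.

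Sequences are shown 5′ to 3′, with matched boxes in capitals, for Scarna9, with the lowest p of all members, for Snord66 and Snord65, with the lowest p among C/D box genes in each direction, for Snord89 and Snora28, the highest of their classes, and for Snora57, with the lowest p among H/ACA box genes. Scarna9 (chr9:15326264-15326333, minus strand, an intron of the centrosomal gene Cep295) carries NTGATGA and CTGA, and is annotated over only 70 bases. Snord89 (chr1:39548745-39548854, minus strand, an intron of Gm15832), Snord66 (chr16:20684239-20684313, plus strand, partly in an exon of the initiation factor gene Eif4g1) and Snord65 (chr11:62604515-62604586, plus strand) carry the same pair.
Scarna9: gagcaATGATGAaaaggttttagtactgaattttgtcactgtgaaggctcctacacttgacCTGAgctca
Snord89: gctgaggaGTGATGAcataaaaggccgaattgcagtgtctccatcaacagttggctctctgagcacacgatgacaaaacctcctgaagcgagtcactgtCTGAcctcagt
Snord66: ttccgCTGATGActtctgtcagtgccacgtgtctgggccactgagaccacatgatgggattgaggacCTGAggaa
Snord65: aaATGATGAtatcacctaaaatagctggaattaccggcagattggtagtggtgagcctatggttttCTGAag
Snora28 (chr12:111540941-111541067, plus strand) and Snora57 (chr19:8888538-8888685, minus strand, in no annotated gene of that strand) carry the first ANANNA of the middle stretch and a terminal ACA.
Snora28: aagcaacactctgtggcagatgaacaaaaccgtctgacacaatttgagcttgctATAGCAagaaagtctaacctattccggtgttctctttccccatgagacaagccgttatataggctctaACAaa
Snora57: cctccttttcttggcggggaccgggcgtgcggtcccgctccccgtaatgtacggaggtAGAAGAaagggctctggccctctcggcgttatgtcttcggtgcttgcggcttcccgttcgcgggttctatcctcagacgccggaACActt

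No member passed the threshold between the genotypes. Genes averaging 1 FPKM or more in at least 1 genotype were tested, on log2(FPKM + 1), a scale that understates differences of low genes. That left 37 members, 19 C/D box, 10 H/ACA box and 8 Cajal body. Of these, 0 had an adjusted p under 0.05 (limma, Benjamini-Hochberg over 10221 genes), against 0.342% of all genes tested. At an unadjusted p under 0.05 there were 12, or 32.4% of the 37, against 17.9% of all genes tested. Of the 12, 11 were lower and 1 was higher in the knockout, and lower and higher genes made up 9.56% and 8.35% of all genes tested. By the adjusted p, those shares were 0.186% and 0.157%. After correction for length and GC content 9 of the 37 members had an unadjusted p under 0.05, as had 1975 of 10174 genes (limma). Only 2 of the 9 were lower, so the direction of this count turned. In the authors' deposited table, 0 of the 123 member transcripts with a q-value were under 0.05, the lowest being 0.185 for Snora57, against 0.0685% of all transcripts.

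Some members entered the test through 1 genotype only. Of the 37 members, 9 were tested only through a wild-type mean of at least 1 FPKM and 4 only through the knockout mean, so a difference was built into those 13. Just under the filter lay Snord85 at means of 0.983 and 0.971 FPKM and Snord118 at 0.928 and 0.723 FPKM. Among the 24 members averaging 1 FPKM or more in both genotypes, a group counted after seeing the data, 6 had an unadjusted p under 0.05, all of them lower (limma). That is 25%, against 16.4% of the 9553 genes at that level, 8.10% lower and 8.32% higher. Their median log2 difference (knockout minus wild type) was -0.23. With no filter, 83 of the 123 members listed above 0 in any library, 67.5%, had a negative difference, against 45.8% of 22550 genes, and their median was -0.020.

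Scarna9 had the lowest p of all members. It stood at 20.3 and 18.7 FPKM in the wild type and 10.0 and 11.5 FPKM in the knockout. Both knockout libraries lay below both wild-type libraries, and values rested on 58.6 to 174 steps. The log2 difference was -0.80 ± 0.10 (SE, n = 2 per group; limma adjusted p = 0.0833). Corrected for length and GC content it was -0.32 (limma adjusted p = 0.154). Its host Cep295 stood at 2.21 and 2.74 against 2.46 and 2.50 FPKM, in the same range in both genotypes. Scarna17, a short Cajal body RNA gene, stood at 5.75 and 8.70 against 4.395 and 3.45 FPKM (-0.72 ± 0.21, limma adjusted p = 0.189). Scarna3a, in an intron of the ubiquitin ligase gene Cop1, stood at 6.19 and 3.58 against 2.40 and 2.37 FPKM (-0.76 ± 0.22, limma adjusted p = 0.198). The groups did not overlap for either, yet the wild-type replicates differed from each other by more than the knockout replicates did.

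Scarna3a and its relative Scarna3b, on another chromosome, are shown together because reads may have been divided between them. Scarna3a lies at chr1:159340283-159340422 (plus strand) and Scarna3b at chr12:80391613-80391751 (minus strand), and 120 of 140 aligned positions (85.7%) were identical. Capitals mark the first ANANNA of the middle stretch and the terminal ACA.
Scarna3a: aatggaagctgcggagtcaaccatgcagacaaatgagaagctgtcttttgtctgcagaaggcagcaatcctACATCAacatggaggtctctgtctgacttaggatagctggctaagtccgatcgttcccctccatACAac
Scarna3b: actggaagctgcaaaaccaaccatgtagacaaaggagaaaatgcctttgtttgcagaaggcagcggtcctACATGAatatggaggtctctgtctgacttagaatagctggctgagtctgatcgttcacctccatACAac
Scarna3b was lower throughout, at 1.60 and 1.12 FPKM in the wild type and 0.549 and 0.987 FPKM in the knockout. Scarna6, in an intron of the autophagy gene Atg16l1, lay the other way, at 4.14 and 3.92 against 4.29 and 5.89 FPKM (0.26 ± 0.15, limma adjusted p = 0.413). The other long Cajal body genes overlapped between the genotypes. Log2 differences were 0.24 ± 0.17 for Scarna10, -0.10 ± 0.24 for Scarna2 and -0.10 ± 0.11 for Scarna13 (limma adjusted p = 0.504, 0.856 and 0.687). Scarna10 overlaps an exon of the condensin gene Ncapd2, which was also lowest in wild-type replicate 2, at 67.0 and 48.7 against 68.2 and 67.7 FPKM. Reads of Scarna10 and Ncapd2 may not have been told apart.

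Among H/ACA box genes, the pseudouridylation guides, Snora28 and Snora57 had the lowest p. Snora57 stood at 3.78 and 3.72 FPKM in the wild type and 2.86 and 2.81 FPKM in the knockout. Replicates were close together and the genotypes did not overlap (-0.31 ± 0.08, limma adjusted p = 0.173). Snora28 stood at 15.4 and 22.7 against 12.0 and 13.2 FPKM (-0.54 ± 0.19, limma adjusted p = 0.248; -0.16 when corrected for length and GC content), and Eif5 at 53.0 and 62.6 against 53.6 and 58.7 FPKM. Wild-type replicate 2 was highest for both Snora28 and Eif5. Snora74a stood at 1.86 and 1.47 against 1.10 and 1.29 FPKM. Snora31, in the gene of the translationally controlled tumour protein Tpt1, was the least reproducible of the high genes, at 5.06 and 16.0 against 6.46 and 11.3 FPKM. Its difference was -0.09 ± 0.54 and turned to 0.66 without wild-type replicate 2.

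Snora73a and Snora73b, neighbouring copies in the Rcc1 gene on chromosome 4, are known for a part in early cleavage of the ribosomal RNA precursor rather than as modification guides. They lie at chr4:132352775-132352979 and chr4:132352322-132352526 on the minus strand, and 198 of 205 positions (96.6%) were identical, so reads of one can be assigned to the other. Capitals mark ANANNA and ACA as above.
Snora73a: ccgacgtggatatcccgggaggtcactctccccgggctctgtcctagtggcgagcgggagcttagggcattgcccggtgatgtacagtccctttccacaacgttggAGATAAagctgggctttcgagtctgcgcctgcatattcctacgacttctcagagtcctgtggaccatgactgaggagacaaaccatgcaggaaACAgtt
Snora73b: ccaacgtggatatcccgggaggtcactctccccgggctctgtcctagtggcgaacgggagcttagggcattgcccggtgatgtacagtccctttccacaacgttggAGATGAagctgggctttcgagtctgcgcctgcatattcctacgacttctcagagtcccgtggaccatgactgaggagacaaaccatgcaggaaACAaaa
Snora73b stood at 14.2 and 9.36 FPKM in the wild type and 12.9 and 14.3 FPKM in the knockout. Snora73a stood at 7.33 and 4.84 against 7.22 and 5.31 FPKM. Wild-type replicate 2 was lowest for both copies, the genotypes overlapped, and Snora73b was the higher copy in every library. Log2 differences were 0.21 ± 0.20 and 0.05 ± 0.22 (limma adjusted p = 0.608 and 0.928).

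C/D box genes, the ribose methylation guides, had a low median level, while the highest members were well covered. The highest, Snord89, stood at 6.66 and 8.48 FPKM in the wild type and 5.71 and 6.57 FPKM in the knockout (-0.26 ± 0.14, limma adjusted p = 0.393), on at least 40.4 steps. Snord71, in the adaptor gene Ap1g1, stood at 5.69 and 3.75 against 3.33 and 3.11 FPKM, and Snord15a, in the ribosomal protein gene Rps3, at 4.17 and 2.82 against 2.80 and 2.097 FPKM. For Snord89, Snord71 and Snord15a both knockout libraries lay below both wild-type libraries, by less than the gap between wild-type replicates. Snord17, the longest at 238 bases, overlapped between genotypes at 4.69 and 1.87 against 3.96 and 4.19 FPKM, as did Snord37 in the elongation factor gene Eef2, at 1.94 and 3.03 against 2.80 and 3.02 FPKM. The lowest p values of the class came from lower genes, Snord66, Snord65 and Snord100. Snord66 and Snord100 were tested only through the wild-type mean and Snord65 only through the knockout mean. A difference was therefore built into each. Snord66 stood at 1.43 and 1.128 against 0.674 and 0.417 FPKM (-0.56 ± 0.14, limma adjusted p = 0.164), or 5.92 and 3.78 steps in the wild type. Snord100, in the ribosomal protein gene Rps12, stood at 1.03 and 1.80 against 0.547 and 0.717 FPKM (-0.55 ± 0.19, limma adjusted p = 0.237). Corrected for length and GC content, Snord66 stood at -0.26 and Snord100 at -0.18. Snord65 went the other way, at 0.711 and 0.357 against 1.75 and 1.16 FPKM (0.68 ± 0.18, limma adjusted p = 0.178). Its wild-type values equal 2.82 and 1.15 steps and its knockout values 29.7 and 18.1, so the wild-type end is at the limit of depth.

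The 4 C/D box RNAs of the ribosomal protein gene Rpl13a, which have been linked to cell death under lipid stress, did not share a direction. Snord35a stood at 0.897 and 1.75 FPKM in the wild type and 0.589 and 0.523 FPKM in the knockout (-0.55 ± 0.20, limma adjusted p = 0.258). Snord32a stood at 1.33 and 2.15 against 1.26 and 1.42 FPKM, Snord34 at 1.41 and 1.26 against 1.51 and 1.31 FPKM, and Snord33, which was not tested, at 0.794 and 0.227 against 0.510 and 0.960 FPKM. Only Snord35a kept the genotypes apart, and it was tested only through its wild-type mean. Their host Rpl13a stood at 57.2 and 63.3 against 62.1 and 64.6 FPKM. Of the C/D box RNAs made from their own promoters, Snord118, needed for maturation of the large ribosomal subunit RNA, stood at 1.21 and 0.650 against 0.696 and 0.750 FPKM. Snord13 stood at 0.202 and 0.127 against 0.128 and 0.313 FPKM. Neither was tested and both overlapped.

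The class sums and medians are given as a description and were not tested. The summed level of all 84 C/D box genes was 53.7 and 54.3 FPKM in the wild type and 42.9 and 43.6 FPKM in the knockout, without overlap. H/ACA box genes summed to 58.3 and 72.6 against 51.7 and 59.4 FPKM, which overlapped. Cajal body genes summed to 469 and 374 against 460 and 452 FPKM, and without Scarna10 to 102 and 112 against 99.4 and 78.4 FPKM. Among tested genes the median log2 difference was -0.37 for C/D box, -0.09 for H/ACA box and -0.26 for Cajal body genes, against 0.018 for all genes tested. Among members averaging 1 FPKM or more in both genotypes the medians were -0.26, -0.18 and -0.10, a different order of the classes. The first 3 medians stayed negative when FPKM was rescaled to protein-coding genes, but after correction for gene length and GC content they were 0.044, 0.17 and -0.17. Negative differences numbered 13 of 19, 6 of 10 and 6 of 8. Both knockout libraries lay below both wild-type libraries in 18 of the 37 members tested (48.6%) and above them in 5, against 23.1% and 29.6% of all genes tested, but 8 of the 18 were tested only because of their wild-type mean. Of the 24 members averaging 1 FPKM or more in both genotypes, 10 lay below (41.7%) and 2 above, against 21.3% and 29.8% of all genes at that level.

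**Figure D3:**
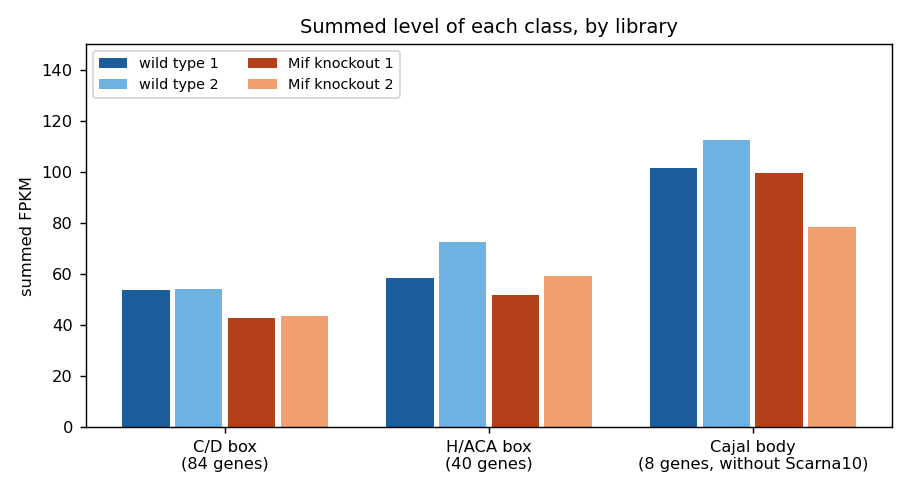
Summed FPKM of each class, Cajal body genes without Scarna10, in the 4 libraries (blue wild type, red Mif knockout; bars are single libraries). The C/D box sums are 53.7 and 54.3 against 42.9 and 43.6 FPKM, the H/ACA box sums overlap, and the 8 Cajal body genes without Scarna10 give 102 and 112 against 99.4 and 78.4 FPKM.

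Other RNA types outside protein-coding genes, short and long, showed the same lean, under the same filter. Genes of those types that passed the filter through 1 genotype only were not counted apart. Genes annotated as snoRNA or scaRNA under other names, 75 tested, had a median log2 difference of -0.38, with 67 negative. The median was -0.42 for 75 small nuclear RNA genes, -0.41 for 145 miRNA genes and -0.47 for 45 sense intronic lncRNA genes. It was -0.48 for 280 genes of the GENCODE type TEC, transcripts that await experimental testing. For 114 long intergenic noncoding RNA (lincRNA) genes it was -0.19, and for 8444 protein-coding genes 0.041. Median lengths were 1258 bases for sense intronic, 2222.5 for TEC and 1241.5 for lincRNA genes, against 110 for tested members. The members' class medians lay at or above those of the small and sense intronic types. Depth and lane go with genotype, and the part of depth, lane and filter in the lean was not tested. The spread between replicates was wider than for all genes and close to that of other small RNA types. The median gap between replicates on the log2 scale was 0.334 in the wild type and 0.173 in the knockout for tested members, against 0.150 and 0.0718 for all genes tested. It was 0.320 and 0.190 for snoRNA and scaRNA genes under other names, 0.296 and 0.132 for small nuclear RNA genes and 0.427 and 0.176 for miRNA genes. At matched levels of 0.5 to 3 FPKM, 22 members had gaps of 0.302 and 0.177 and 1887 protein-coding genes 0.152 and 0.0691.

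**Figure D4:**
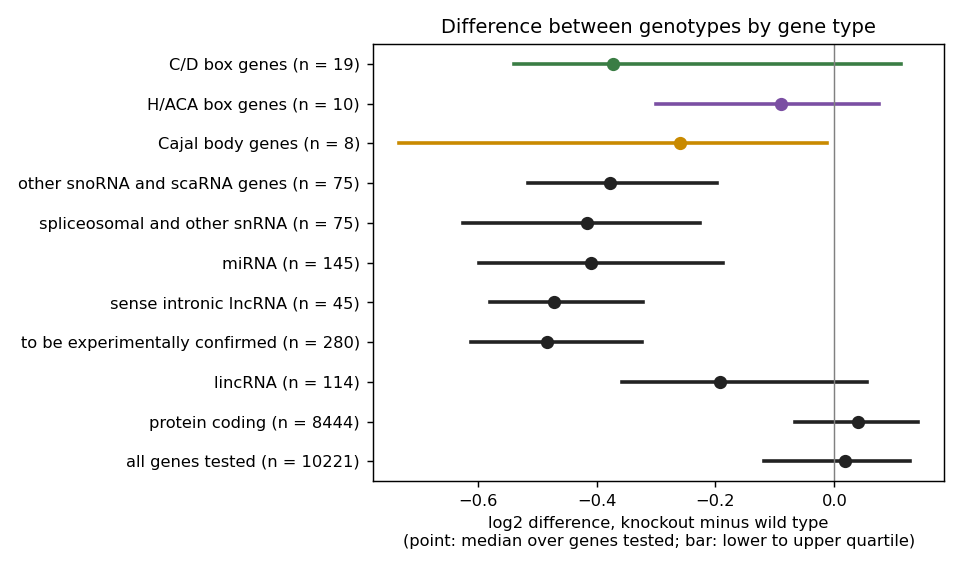
Log2 difference in FPKM, knockout minus wild type, by gene type, with points at medians and bars from lower to upper quartile over the genes tested. The members' medians of -0.37, -0.09 and -0.26 lie at or above those of other small and sense intronic RNA types, -0.47 to -0.38, and the C/D and H/ACA medians turn to 0.044 and 0.17 when corrected for length and GC content.

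The hosts' differences were set beside those of their guide RNA genes, without a test of the contrast. For the 31 tested members whose host was in the files, 27 hosts in all, the median log2 difference was -0.26 for the members and 0.072 for the hosts. For H/ACA box genes alone it was 0.046 for members and -0.038 for hosts. The member's difference lay below that of its host in 21 of 31 pairs, 14 of 19 for C/D box, 3 of 7 for H/ACA box and 4 of 5 for Cajal body genes. These pairs include members tested through 1 genotype only, into which a difference was built. The pairs were not counted without those members. Of 26 hosts tested, 0 passed the threshold and 3 had an unadjusted p under 0.05, 2 higher and 1 lower (limma), against 0.342% and 17.9% of all genes tested. The host stood at the higher level in 26 of the 31 pairs, per length.

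**Figure D5:**
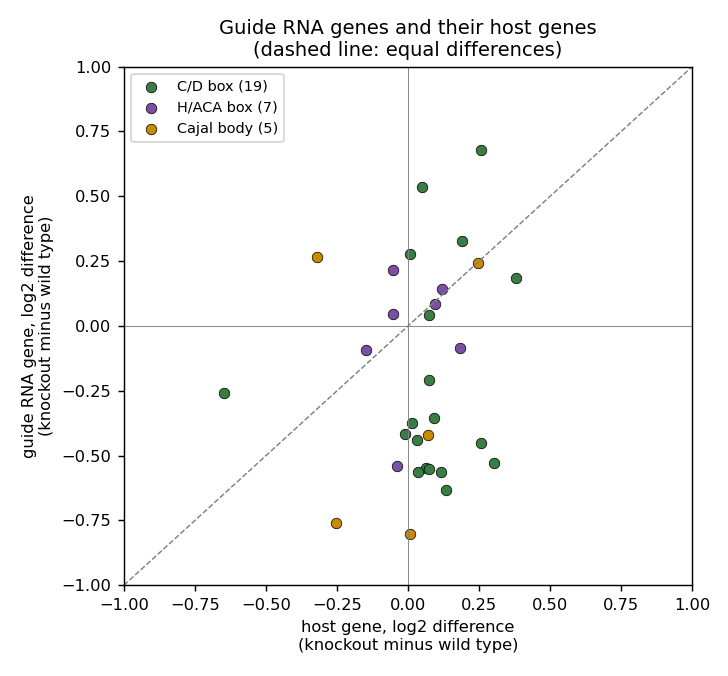
Log2 difference (knockout minus wild type) of each tested guide RNA gene on the vertical axis against that of its host gene on the horizontal axis, 31 pairs coloured by class, with a dashed line at equal differences. Members spread from -0.80 for Scarna9 to 0.68 for Snord65, and 21 of the 31 points lie below the line. Members tested through 1 genotype only are among the points.

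The proteins that bind, build and trim these RNAs showed no difference past the threshold. Of 32 listed genes 18 were tested, 0 passed (limma, Benjamini-Hochberg) and 2 had an unadjusted p under 0.05, 1 in each direction, against 0.342% and 17.9% of all genes tested. Their median log2 difference was -0.0053. The lower was Nop58, a core protein of C/D box particles, at 1.49 and 1.65 FPKM in the wild type and 0.701 and 0.908 FPKM in the knockout (-0.51 ± 0.11, limma adjusted p = 0.152). Nop58 was tested only through its wild-type mean, so a difference was built in. Its partner Nop56 stood at 1.55 and 2.21 against 1.74 and 1.902 FPKM, and the methyltransferase gene Fbl, not tested, at 0.740 and 0.969 against 0.770 and 0.796 FPKM. The higher was Ruvbl2, an assembly ATPase, at 8.60 and 9.97 against 11.4 and 11.3 FPKM (0.26 ± 0.095, limma adjusted p = 0.255). Of the H/ACA core, the synthase gene Dkc1 stood at 0.814 and 1.12 against 0.726 and 0.725 FPKM and Gar1 at 0.320 and 0.0896 against 0.477 and 0.232 FPKM, neither tested. Nop10 stood at 1.00 and 1.18 against 1.31 and 1.16 FPKM and Nhp2 at 1.29 and 1.80 against 1.55 and 1.31 FPKM. The Cajal body scaffold gene Coil was at or under 0.0506 FPKM in every library. Wrap53, which carries guide RNAs to Cajal bodies, stood at 3.17 and 3.26 against 3.46 and 3.23 FPKM.

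Fits without 1 of the wild-type libraries were read for the direction of differences only. Members and other genes passed in fits without 1 of the wild-type libraries. In those fits the lone wild-type library is taken to vary like the knockout pair, so no conclusion is drawn from their calls. Without wild-type replicate 1, 29 of 40 members tested (72.5%) had a negative difference, against 51.5% of all genes tested. The medians were -0.29 and -0.0083. Without wild-type replicate 2 it was 30 of 41 (73.2%) against 42.2%, with medians of -0.23 and 0.040. Both fits used the same knockout libraries. Members tested through 1 genotype only, into which a difference was built, are among those counted.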

How the data were processed

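The authors deposited 1 table of FPKM per transcript and library, and, per the file headers, a fold with its p-value and q-value. The submitters' processing notes name GRCm38, StringTie 2.1.4, HISAT2 2.1.0, R 3.6.1 and SAMtools 1.9 without saying what each did. Not given in the sources used here are annotation release, strand setting and filters. Libraries were made from 50 ng of total RNA depleted of ribosomal RNA, per the labels' protocols.

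FPKM was summed per gene identifier and tested as log2(FPKM + 1) with limma 3.58.1 in R 4.3.3 (trended empirical Bayes, no covariates) on 2 against 2 libraries, for genes averaging 1 FPKM or more in at least 1 genotype. Benjamini-Hochberg adjustment ran over all genes tested, with a threshold of 0.05. The fit was tested on simulated data with the same spread in both genotypes. That test does not cover the wider spread of the wild-type libraries. The files hold no counts, so no counting interval is given. Depth came from single-exon genes of at least 300 bases, whose FPKM times length clustered within 2% of 0.0181, 0.0224, 0.00424 and 0.00463 FPKM kb. Positions, lengths, hosts and sequences came from GENCODE M21.

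The members and lists were chosen with earlier results of these data known. Named were, per class, the 5 highest and the 3 with the lowest p, and members known for their own promoters, for Rpl13a or as larger guides, and fixed proteins. Scarna3b, Snord85, Ruvbl2 and the Gas5 members were chosen after their values were seen. Alternatives were pseudocount, filters, scaling, moderation, transcripts, left-out libraries, a replicate block, length and GC, length and depth of members.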

Additional observations from a re-analysis of the deposited data

How the results depend on the processing

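The count of 0 members past the threshold held with a pseudocount of 0.1, no filter, filters at 5 FPKM or on the mean of all 4 libraries (the last chosen after seeing the data), rescaled FPKM, no trend, single transcripts, correction for length and GC, and members of at least 100 bases or with 3 steps in every library. Leaving out 1 library gave 0 to 26 members, 0 to 3 protein genes and 0 to 2938 of all genes. Every count above 0 came from a fit without 1 of the wild-type libraries, and the largest counts of members and of all genes came from different fits. Each of these fits leaves 1 library in a genotype, so that genotype's spread cannot be measured. No conclusion is drawn from these counts. Leaving out 1 library gave medians from -0.42 to -0.23 for C/D box and -0.30 to -0.13 for H/ACA box genes. All genes past the threshold, 35, became 0 with no filter, 16 at 5 FPKM, 10 with rescaled FPKM and 20 corrected for length and GC. The C/D box median became -0.51 with a pseudocount of 0.1 and -0.017 with no filter. The Cajal body median became -0.44 with a pseudocount of 0.1 and -0.10 at 5 FPKM or for members of at least 100 bases. Correction for length and GC turned the medians of C/D and H/ACA box genes to 0.044 and 0.17, and the differences of Snord89 to 0.045, Snord32a to 0.12, Snora31 to 0.22 and Scarna13 to 0.016. The cause was not tested. Leaving out 1 library at a time took differences across 0 for 10 of the 24 named members tested: Scarna10 from -0.00099 to 0.49, Scarna13 from -0.23 to 0.030, Scarna2 from -0.41 to 0.21, Snora31 from -0.83 to 0.66, Snora73a from -0.21 to 0.30, Snora73b from -0.062 to 0.49, Snord17 from -0.16 to 0.82, Snord32a from -0.43 to 0.0091, Snord34 from -0.018 to 0.10 and Snord37 from -0.046 to 0.41. With the replicate number as a block, 0 members and 34 of all genes passed and the class medians stayed at -0.37, -0.09 and -0.26. Same-numbered libraries deviated from their group means with a correlation of 0.0065, and the labels do not say that a number pairs samples. Depth limits what can be seen of members under 3 steps in the wild-type libraries.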
